A study of Mus musculus with 30 samples.

Results

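NF-kB and immediate early genes were followed as a set of 42 genes, of 55401 gene rows counted, in 30 libraries of one mouse B-cell lymphoma line. The set was chosen by name and not by level, though with earlier results of these data known. It holds the NF-kB subunits, their inhibitors, a group of NF-kB target genes, and the immediate early genes with the feedback genes that act on them. All libraries came from Eµ-Myc; p19ARF -/- cells, in which the Myc oncogene is driven in B cells by the immunoglobulin heavy chain enhancer and the p19ARF tumor suppressor is lost, and the control lines and the parental line carry the same alleles. The 17 paclitaxel resistant lines had been seeded at 10000 cells per well and dosed with paclitaxel, a drug that stabilizes microtubules, to kill 85% of the cells in 3 days. They then recovered without drug for 4 days, and this cycle went on for 12 to 18 weeks. The 12 DMSO lines went through the same cycles with the solvent, and the parental line gave 1 library. Each line descends from the one parental line, was grown in its own well and was sequenced once, so p-values measure the spread between lines. Whether drug was present when the cells were harvested is not given in the sources used here.

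NF-kB is a family of dimeric transcription factors that IkB proteins hold in the cytoplasm. Signals from B-cell, TNF family and Toll-like receptors lead to the breakdown of IkB, and the freed dimers switch on genes that include their own inhibitors, which closes a feedback loop. Immediate early genes such as Fos, Jun and Egr1 are switched on within minutes of a growth or stress signal without new protein synthesis, and their transcripts are short-lived. In B cells both programs follow receptor signaling, and KLF2, a factor of resting lymphocytes, is turned down when these cells are activated.

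Library totals ran from 480919 to 6739131 counts, with a median of 4052241.5 in the DMSO group and 3263532 in the paclitaxel group, and the smallest was labelled Pac C1. Levels are given as CPM, counts brought to a common library size with TMM factors. Of 12 B-cell markers, 11 were tested, and Cd79b, a chain of the B-cell receptor, ran from 537 to 2185 CPM in the 29 treated lines. Averages were under 1 CPM for 6 of 7 T-cell markers, 5 of 8 macrophage markers and all 5 granulocyte and 5 fibroblast markers. The summed T-cell markers ran from 0.588 to 10.6 CPM in the DMSO and from 0 to 20.7 CPM in the paclitaxel libraries, with Cd3e and Cd4 at 0 in all of these, and Cd3g was highest in Pac D7 at 13.02 CPM. The summed macrophage markers ran from 8.81 to 40.7 CPM and from 11.04 to 61.3 CPM, with Adgre1 at 0 in all of these, and Itgam, the highest of them, reached 50.6 CPM in Pac B2. The part of these markers in the results was not tested. The libraries labelled DMSO 12 and Pac H9 went against their labels. Over all genes tested, DMSO 12 correlated with the mean of the paclitaxel lines at 0.94 and with that of the other DMSO lines at 0.926, whereas Pac H9 correlated at 0.916 with the other paclitaxel lines and 0.925 with the DMSO lines. Abcb1b, the drug efflux pump, was at 70.3 CPM in DMSO 12 against 16.04 to 45.8 CPM in the other DMSO libraries, and at 26.3 CPM in Pac H9 against 42.2 to 258 CPM in the other paclitaxel libraries. DMSO 11 and Pac C1 also correlated slightly better with the other class, but their Abcb1b levels lay within those of their own. Since the names of single lines are uncertain for this reason, each library is called by the label it carries, and results are given with and without DMSO 12 and Pac H9. The doubt extends to which library is the parental one.

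Of the 42 genes, 24 passed the filter on low counts and were tested with 9421 others. All 5 NF-kB subunits passed, as did 3 of 6 inhibitor and feedback genes, 6 of 9 survival and signaling targets, 4 of 9 AP-1 and EGR factors, 6 of 8 feedback and growth restraint genes and 0 of 5 TNF family genes and chemokines. In edgeR's quasi-likelihood test of paclitaxel against DMSO lines, 1 of the 24 genes passed an adjusted p of 0.01. This was Klf2, which was lower in the paclitaxel lines. Over all 9445 genes tested 2.2% were called, 0.995% as higher and 1.21% as lower, so 1 of 24 is near the background. The median log2 difference was 0.23 over the 24 genes and 0.07 over all genes, with 15 of the 24 and 5343 of the 9445 above 0. Without DMSO 12 and Pac H9, Nfkbie also passed the filter, and Klf2 was again the only gene called of 25, against 3.36% of 9567 genes. At an unadjusted p under 0.05 there were 11 of the 24 genes, 8 of them higher in the paclitaxel lines and 3 lower, against 25.1% of all genes.

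**Figure D1:**
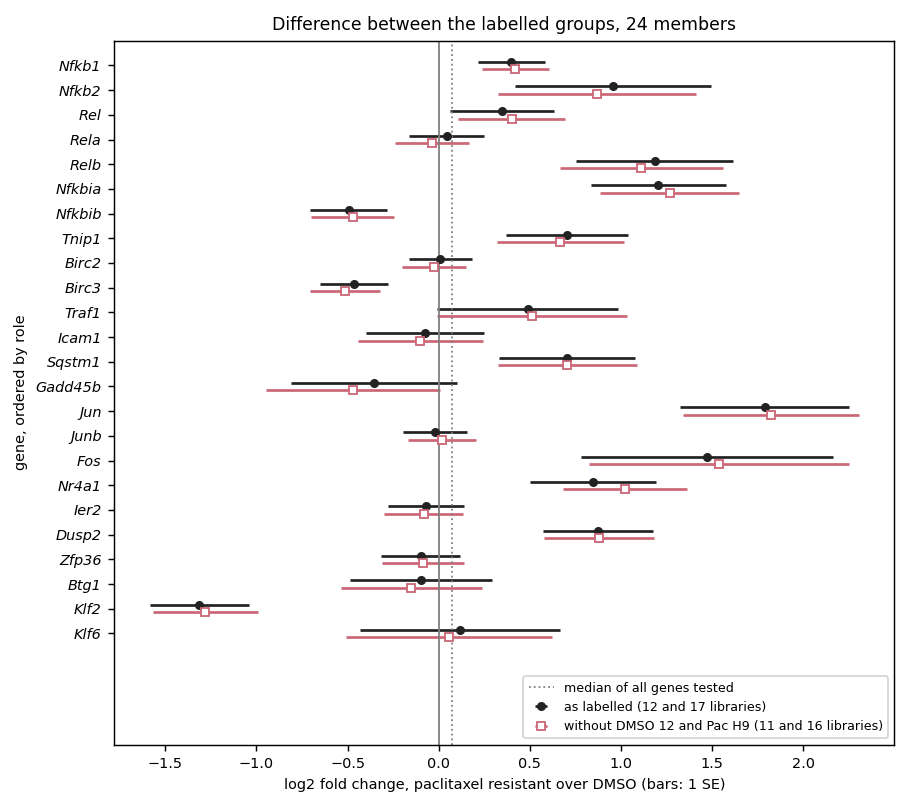
Log2 fold change of paclitaxel resistant over DMSO lines on the x axis, with bars of 1 SE, for the 24 genes that passed the filter, ordered by role. Black circles use all 12 and 17 libraries, open squares leave out DMSO 12 and Pac H9, and the dotted line is the median of all genes tested (0.07). Klf2 lies at -1.31 and Jun at 1.79, and leaving out the 2 libraries moved no point by more than its bar.

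Klf2 encodes a zinc finger factor that keeps lymphocytes quiescent and controls their migration. It lies on chromosome 8 (72319033 to 72321656, plus strand, GRCm38). In the 12 DMSO libraries Klf2 ran from 23.9 CPM in DMSO 11 through a median of 64.8 to 104 CPM in DMSO 4. In the 17 paclitaxel libraries it ran from 7.96 CPM in Pac D4 through a median of 17.2 to 70.2 CPM in Pac D7. The groups overlapped, with 11 of the 17 paclitaxel libraries below the lowest DMSO library and 16 below the DMSO median. Pac D7 and Pac H4, at 70.2 and 64.1 CPM, were the 2 paclitaxel libraries near the DMSO median, and the next was at 37.2 CPM. The log2 difference was -1.31 (SE 0.27), or 2.48-fold lower, with an adjusted p of 0.00283 in edgeR's quasi-likelihood test. Without DMSO 12, at 70.8 CPM, and Pac H9, at 17.2 CPM, it was -1.28 (SE 0.29, adjusted p = 0.00498, edgeR). With any 1 of the 29 libraries left out it stayed between -1.49 and -1.22 with adjusted p-values from 0.000465 to 0.00837. The library labelled Parental held 81.1 CPM, within the DMSO range. The B-cell marker Cd79b had a log2 difference of -0.64 (adjusted p = 0.0132, edgeR), and it passed the threshold without DMSO 12 and Pac H9 (adjusted p = 0.00837, edgeR). Ms4a1, the gene of the B-cell surface protein CD20, had medians of 142 CPM in the DMSO and 12.5 CPM in the paclitaxel libraries, with a log2 difference of -1.84 (adjusted p = 0.128, edgeR). Over the 11 tested B-cell markers the median log2 difference was -0.26 with 3 above 0, against 0.07 and 5343 of 9445 over all genes tested. The 3 were Igll1 at 1.37, Pax5 at 0.11 and Ighm at 0.06, and 0 of the markers were called with all libraries in. The part of these markers in the level of Klf2 was not tested.

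**Figure D2:**
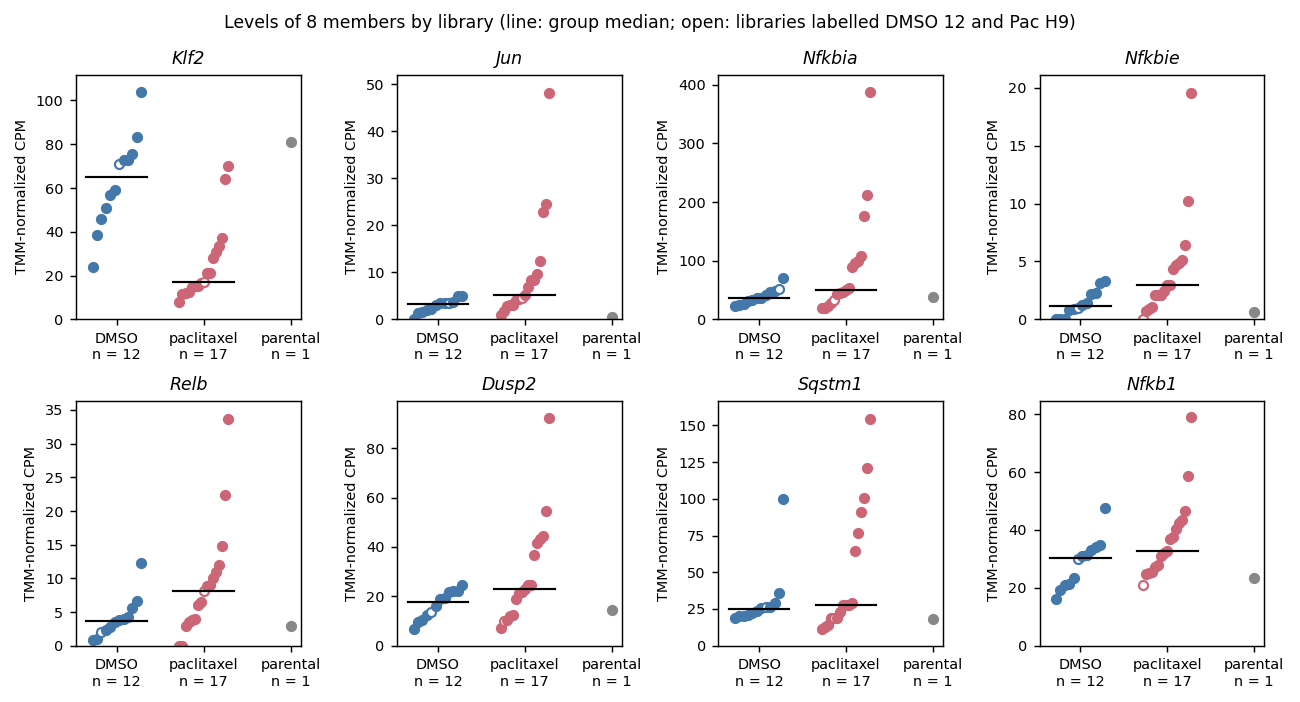
TMM-normalized CPM of 8 genes on the y axis, for 12 DMSO, 17 paclitaxel resistant and 1 parental library. Each point is 1 library, lines are group medians and open points are the libraries labelled DMSO 12 and Pac H9. Klf2 is low in most paclitaxel libraries, whereas Nfkbia, Nfkbie, Jun, Relb and Dusp2 overlap the DMSO range and reach far above it in a few paclitaxel libraries.

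The stretch before the Klf2 start holds a MEF2 consensus, the binding sequence of the MEF2 factors, and so does that of Jun. Both are shown, from RefSeq (GRCm38.p6), 5′ to 3′ and ending at the base before the RefSeq start, with the match in capitals. The gene coordinates given here are those of gencode, which begins Klf2 at 72319033, inside the window shown.
Klf2 (chr8:72318912-72319061, plus strand): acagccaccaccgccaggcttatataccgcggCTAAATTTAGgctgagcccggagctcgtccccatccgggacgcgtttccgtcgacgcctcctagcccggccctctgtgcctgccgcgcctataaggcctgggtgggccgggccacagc
Jun (chr4:95052223-95052342, minus strand): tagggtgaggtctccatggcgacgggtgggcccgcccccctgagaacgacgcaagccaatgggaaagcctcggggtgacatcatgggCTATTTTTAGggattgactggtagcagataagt
In the 250 bases before the start, on either strand, a MEF2 consensus was found for 3 of the 34 genes of the set that have an entry (Jun, Atf3 and Klf2) and for 3.42% of 27025 genes. The differences of Klf2 and Jun between the groups had opposite signs, though that of Jun did not pass the test. A match is a description of these letters only.

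Among the other feedback and growth restraint genes, none passed the test. Dusp2, a nuclear phosphatase that switches off MAP kinases, ran from 6.92 through a median of 17.5 to 24.4 CPM in the DMSO libraries and from 7.28 through 23.1 to 92.1 CPM in the paclitaxel libraries. Of the 17 paclitaxel libraries, 8 lay above the highest DMSO library, led by Pac F10 with 92.1 CPM and Pac C11 with 54.6 CPM. For Dusp2 the log2 difference was 0.87 (SE 0.30, adjusted p = 0.0703, edgeR), and 0.88 without the 2 doubted libraries. Btg1, an antiproliferative gene, had its lowest level, 3.10 CPM, in Pac D10 and its highest, 65.7 CPM, in Pac D7, while the DMSO libraries spanned 5.06 to 24.9 CPM. Thus 5 paclitaxel libraries were below the DMSO range of Btg1 and 3 above it, and the log2 difference was -0.10 (SE 0.39). Klf6 was likewise spread on both sides, from 0 CPM in Pac G9 and Pac H3 to 26.6 CPM in Pac C3. Zfp36, whose product degrades unstable transcripts, and Ier2 had log2 differences of -0.10 (SE 0.22) and -0.07 (SE 0.21).

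Of the AP-1 factors that passed the filter, Jun came nearest to the threshold. In the DMSO libraries it ran from 0 CPM in DMSO 9 through a median of 3.24 to 5.04 CPM in DMSO 1. In the paclitaxel libraries it ran from 0.874 CPM in Pac H3 through 5.25 to 48.1 CPM in Pac D7. The next highest were Pac F10 with 24.5 CPM and Pac G9 with 22.8 CPM, and 9 of the 17 paclitaxel libraries lay above every DMSO library. The log2 difference was 1.79 (SE 0.46, adjusted p = 0.0156, edgeR) and 1.82 (adjusted p = 0.015, edgeR) without the 2 doubted libraries. Without Pac D7 it was 1.38 (adjusted p = 0.0306, edgeR). Jun passed the threshold with DESeq2 (adjusted p = 0.00188), with edgeR's likelihood ratio test (0.00367) and with library size as a covariate (0.00798, edgeR's quasi-likelihood test).

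Junb, another AP-1 factor, was not among the genes that passed. It ran from 30.5 to 118 CPM in the DMSO libraries and from 52.4 to 127 CPM in the paclitaxel libraries, with a log2 difference of -0.02 (SE 0.18). The sign of this value turned without the 2 doubted libraries, to 0.02. Fos, the partner of JUN in the AP-1 dimer, was at 37.2 CPM in Pac D10 and at most 8.69 CPM in any other paclitaxel library, while DMSO 5 held 12.5 CPM. Its log2 difference of 1.47 (SE 0.69, adjusted p = 0.179, edgeR) became 0.99 without Pac D10 and 2.41 (adjusted p = 0.0318, edgeR) without DMSO 5. Nr4a1, an orphan nuclear receptor induced by antigen receptor signals, reached 40.2 CPM in Pac D7 and 22.5 CPM in Pac F10 against a DMSO range of 2.06 to 14.2 CPM, the top of which was DMSO 12. Its log2 difference was 0.84 (SE 0.34, adjusted p = 0.123, edgeR), 1.02 (adjusted p = 0.0525) without the 2 doubted libraries and 0.57 without Pac D7.

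Nfkbia encodes IkB alpha, the main feedback inhibitor, and lies on chromosome 12 (55489410 to 55492647, minus strand). In the DMSO libraries it ran from 21.97 CPM in DMSO 10 to 71.4 CPM in DMSO 3. In the paclitaxel libraries it ran from 19.3 CPM in Pac B2 to 387 CPM in Pac D7, followed by 212 CPM in Pac F10, 176 CPM in Pac D4 and 108 CPM in Pac C11. Of the 17 paclitaxel libraries 7 lay above every DMSO library, 2 below the lowest, and the others within the DMSO range. Its log2 difference was 1.204 (SE 0.37, adjusted p = 0.0409, edgeR) and 1.27 (adjusted p = 0.0332) without the 2 doubted libraries, so it did not pass 0.01. Without Pac D7 it was 0.85 (adjusted p = 0.0892, edgeR).

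Nfkbie encodes IkB epsilon, and it was under the filter with all libraries in. It was at 0 to 3.30 CPM in the DMSO libraries and at 0 to 19.5 CPM in the paclitaxel libraries, where Pac F10 was highest and Pac D7 next at 10.2 CPM. Of the 17 paclitaxel libraries, 7 lay above the DMSO range, and the 0 was in Pac H9. When DMSO 12 and Pac H9 were left out it was tested, with a log2 difference of 1.62 (SE 0.49, adjusted p = 0.0329, edgeR). Tnfaip3, which encodes the ubiquitin-editing inhibitor A20, had 0 counts in all 12 DMSO libraries and 40 counts in 6 paclitaxel libraries. Of the 40, Pac D7 held 21, Pac C11 9 and Pac D4 7, while Pac E1, Pac F10 and Pac H4 held 1 each. Against a floor of 3 counts over the DMSO group the 40 counts are at least 11.0-fold higher, a bound for these libraries that rests on few counts. From the 19 counts left without Pac D7, most of them in Pac C11 and Pac D4, it is at least 5.57-fold. Tnip1, a partner of A20, had a log2 difference of 0.71 (SE 0.34), while Nfkbib, which encodes IkB beta, had one of -0.49 (SE 0.21, adjusted p = 0.143, edgeR), with 7 paclitaxel libraries below the lowest DMSO library. Nfkbib shares its locus with Sirt2 on the other strand, and if strand was not used in counting their reads cannot be told apart. The same holds for Junb with Prdx2, Jun with Junos, Sqstm1 with Mrnip, Tnip1 with Gm12230, Icam1 with Gm47079 and Nfkb2 with AC114539.1, which had 429 counts over the 30 libraries.

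NF-kB activates several of its own inhibitors through sites before their starts. Of the 34 genes with an entry, 12 held the NF-kB consensus in the 250 bases before the start (Nfkb2, Rel, Nfkbia, Nfkbie, Tnfaip3, Tnip1, Ebi3, Sqstm1, Ltb, Fos, Fosb and Ier3), which is 35.3% against 4.46% of 27025 genes. The set was chosen as NF-kB targets, so this share is a description of the choice. The windows of 3 inhibitor and feedback genes, Nfkbia, Nfkbie and Tnfaip3, are shown because these had their highest levels in Pac D7 or Pac F10. That of the subunit gene Nfkb2, which was highest in Pac C1, is shown beside them. Capitals mark the consensus on either strand. Each window ends at the base before a RefSeq start. Those of Nfkb2 and Tnfaip3 lie inside the gencode genes, which begin at 46304320 and, on the minus strand, at 19015657.
Nfkbia (chr12:55492648-55492767, minus strand): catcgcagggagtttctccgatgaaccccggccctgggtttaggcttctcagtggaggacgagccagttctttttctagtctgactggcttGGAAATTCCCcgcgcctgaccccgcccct
Nfkbie (chr17:45555520-45555699, plus strand): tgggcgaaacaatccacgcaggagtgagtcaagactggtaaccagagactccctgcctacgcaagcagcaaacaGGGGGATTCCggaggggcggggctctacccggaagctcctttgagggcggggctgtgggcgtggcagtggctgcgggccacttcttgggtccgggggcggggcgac
Nfkb2 (chr19:46304617-46304736, plus strand): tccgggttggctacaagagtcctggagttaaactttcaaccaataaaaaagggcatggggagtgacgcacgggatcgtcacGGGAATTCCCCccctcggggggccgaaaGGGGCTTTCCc
Tnfaip3 (chr10:19015411-19015560, minus strand): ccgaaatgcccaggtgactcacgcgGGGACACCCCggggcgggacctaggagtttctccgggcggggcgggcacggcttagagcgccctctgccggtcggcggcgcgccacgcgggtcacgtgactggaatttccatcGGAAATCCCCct
The AP-1 site TGANTCA was found for Nfkb2, Nfkbie and Tnfaip3, or 8.82% of the set against 7.82% of all genes. The EGR site GCGNGGGCG was found for 7 of the 34 genes (20.6% against 5.33%), Klf2, Dusp2 and Nr4a1 among them. The serum response element, through which SRF drives immediate early genes, was found for Egr2 and Zfp36 (5.88% against 1.62%), and the cyclic AMP response element TGACGTCA for Birc2 and Dusp1 (5.88% against 1.77%). Egr1, Nfkb1, Ier2, Ccl4, Cd83, Egr3, Relb and Map3k8 had no entry among the promoters searched, which does not show that RefSeq lacks these genes.

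Of the subunits, Relb, which pairs with p52 in the noncanonical pathway, differed most. It ran from 0.807 to 12.2 CPM in the DMSO libraries, with DMSO 11 highest, and from 0 to 33.6 CPM in the paclitaxel libraries, with Pac F10 highest and Pac D7 next at 22.4 CPM. The 2 paclitaxel libraries at 0 were Pac C1 and Pac D10. The log2 difference was 1.19 (SE 0.43, adjusted p = 0.0834, edgeR) and 1.11 without the 2 doubted libraries, and leaving out Pac F10 gave 0.91 and leaving out DMSO 11 gave 1.54. Nfkb1, the gene of p105 and p50, ran from 15.98 to 47.7 CPM and from 20.8 to 79.0 CPM in the DMSO and paclitaxel libraries, with a log2 difference of 0.40 (SE 0.19, adjusted p = 0.176, edgeR). Nfkb2, the gene of p100 and p52, was low in both groups, with medians of 1.46 and 2.15 CPM, and its highest level, 14.6 CPM, was in Pac C1, the shallowest library, from 7 counts. Rel had a log2 difference of 0.35 (SE 0.28) with Pac F10 highest at 49.1 CPM. Rela, the canonical activating subunit, had a log2 difference of 0.04 (SE 0.21) and turned to -0.04 without the 2 doubted libraries.

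**Figure D3:**
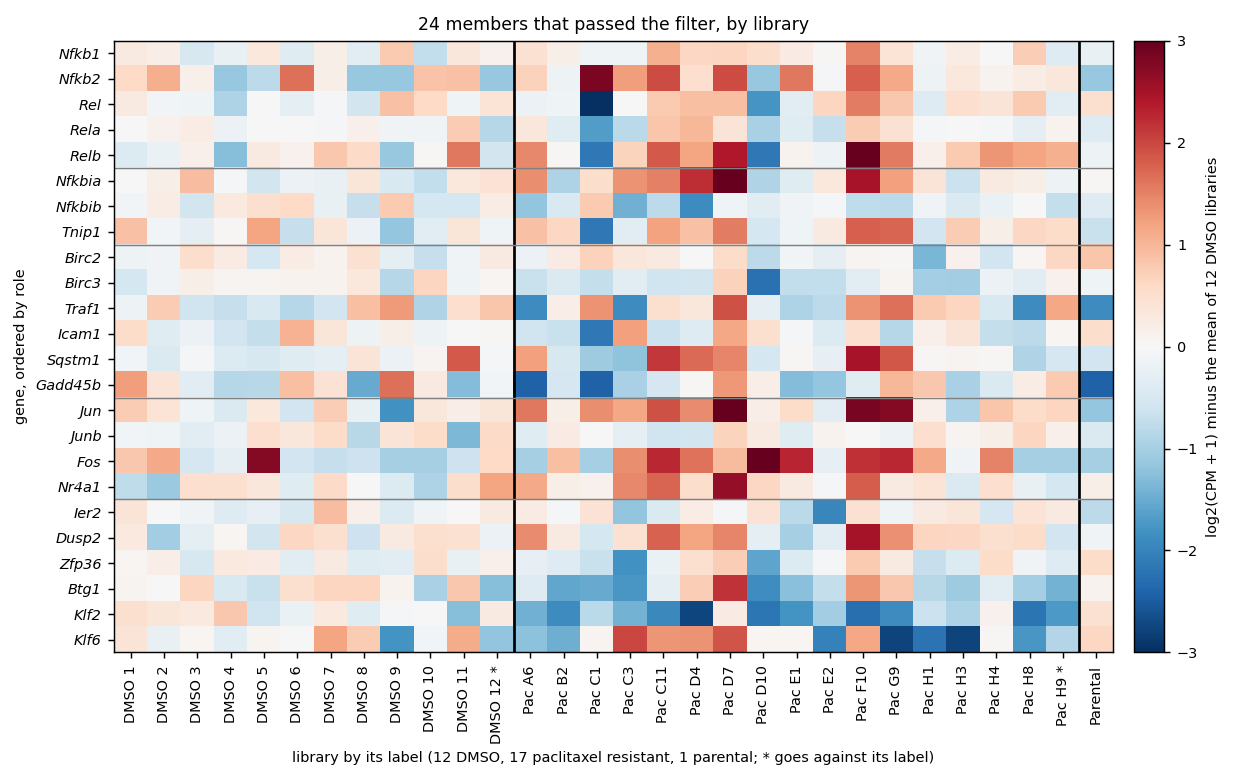
Level of the 24 genes that passed the filter (rows, by role) in each library (columns, by label), as log2(CPM + 1) minus the mean of the 12 DMSO libraries. Red is above and blue below that mean, and asterisks mark DMSO 12 and Pac H9. Pac D7 and Pac F10 are red for most NF-kB and AP-1 genes, whereas Klf2 is blue in nearly every paclitaxel library.

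The survival and signaling targets did not move as one. Sqstm1, which encodes the autophagy receptor p62, was at 64.8 CPM or more in 6 paclitaxel libraries, up to 155 CPM in Pac F10 and 121 CPM in Pac C11, and at 28.8 CPM or less in the other 11. In the DMSO libraries it ran from 19.1 to 35.8 CPM apart from DMSO 11 with 99.6 CPM. This gave a log2 difference of 0.70 (SE 0.37, adjusted p = 0.233, edgeR), and leaving out DMSO 11 and Pac C3 together moved it to 1.08 (adjusted p = 0.0334, edgeR). Birc3, which encodes the ubiquitin ligase cIAP2, had a log2 difference of -0.46 (SE 0.19, adjusted p = 0.122, edgeR), with 15 of 17 paclitaxel libraries below the DMSO median and Pac D7 above every library at 85.5 CPM. Its neighbor on chromosome 9 and close paralog Birc2, for cIAP1, had one of 0.01 (SE 0.17). Traf1, Icam1 and Gadd45b had log2 differences of 0.49, -0.08 and -0.35 with SEs of 0.50, 0.32 and 0.45.

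Pac D7 and Pac F10 stood out over the set. Pac D7 was the highest paclitaxel library for 9 of the 24 genes and among the 3 highest for 18, or 75% against 20.8% of all genes tested. Pac F10 was highest for 8 and among the 3 highest for 15, or 62.5% against 30.8%. Pac G9 was among the 3 highest for 8 genes, or 33.3% against 14.4%, and Pac C11 for 7, or 29.2% against 25.1%, which is near the share of all genes. These counts describe how the libraries rank and carry no test, since the libraries were picked out by these levels.

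In a principal component analysis of the 9421 genes tested that are outside the set, PC1 held 23.7% of the variance. Along PC1 the paclitaxel libraries left a gap of 47.9, from -4.66 to 43.3, with 6 libraries above it (those labelled Pac F10, Pac C11, Pac D4, Pac A6, Pac G9 and Pac D7, from the highest down) and 11 below. The 6 libraries above the gap held the highest paclitaxel level of 18 of the 24 genes, or 75% against 45.4% of all genes tested. This share came mostly from 2 libraries, with 9 genes highest in Pac D7, 8 in Pac F10 and 1 in Pac D4. Pac A6, Pac C11 and Pac G9 were highest for 0. Pac A6 was also among the 3 highest for 0 of the 24 genes, and Pac D4 for 16.7% against 23.8% of all genes tested. DMSO 11 lay on the side of these 6 libraries, at 55.1 on PC1. Mitochondrial transcripts, which vary with RNA quality, took 2.29% to 11.9% of the counts in the 6 libraries above the gap and 1.34% to 12.4% over all 30. The highest shares, 12.4% in DMSO 11, 11.9% in Pac D4 and 10.1% in Pac C11, lay on the side of high PC1, and DMSO 8 was next with 7.39%. Pac F10, Pac A6, Pac D7 and Pac G9 held 2.29% to 3.8%. The part of mitochondrial transcripts in the levels was not tested. Total counts of the 6 ran from 2640319 to 5315840. Of 8 tested heat shock genes, which respond to stress and handling, 0 were called over all lines, with a median log2 difference of -0.06. The list did not move as one. Hsph1 and Dnajb1 had their 3 highest paclitaxel levels above the gap. They reached 223 CPM in Pac C11 and 84.7 CPM in Pac F10, against at most 114 and 46.7 CPM in the DMSO libraries. Other tested genes of the list had their lowest paclitaxel level above the gap. These were Hspa8 (586.7 CPM) and Dnaja1 (122.8 CPM) in Pac D4, Hspd1 (421.5 CPM) and Hsp90aa1 (197.3 CPM) in Pac D7, and Hspe1 (239.9 CPM) in Pac A6. Hspa1a and Hspa1b, the inducible members, were under the filter, with 8.57 CPM of Hspa1a in Pac C3 and 5.95 CPM in Pac D7 against at most 0.561 CPM in the DMSO libraries, and 2.11 CPM of Hspa1b in Pac F10 and 1.70 CPM in Pac D7 against at most 1.18 CPM. The part of the heat shock genes in the levels was not tested.

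**Figure D4:**
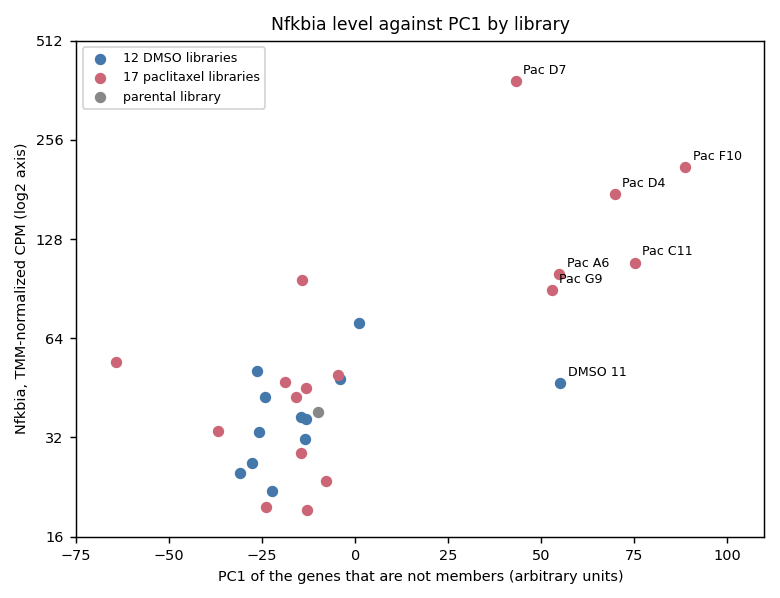
Nfkbia in TMM-normalized CPM (y axis, log2 scale) against PC1 of the genes outside the set (x axis), 1 point per library. The 6 labelled paclitaxel libraries right of the gap have 89.6 to 387 CPM of Nfkbia, while DMSO 11 lies at the same side with a level in the DMSO range. Pac C3, left of the gap at -14.3, has 95.9 CPM, which is also above every DMSO library.

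Whether genes of the loop followed each other from line to line was asked for 14 pairs chosen by function, of which 6 had both genes above the filter. With 2 groups this gave 12 relations on log2 CPM, and 0 of them had an adjusted p under 0.05 (permutation tests of Pearson's r, 100000 resamples, two-sided, Benjamini-Hochberg over 12). Without DMSO 12 and Pac H9, 2 of the 12 passed, both in the paclitaxel lines, namely Nfkbia with Relb at r = 0.65 and Nfkbia with Birc3 at r = 0.65 (adjusted permutation p = 0.0337 for each). With all libraries in, the strongest was Nfkbia with Relb in the 17 paclitaxel libraries, with r = 0.63 (permutation p = 0.00754, adjusted p = 0.0675) and Spearman's rho = 0.70 (permutation p = 0.00261, adjusted p = 0.0292). Without Pac D7 and Pac F10, the farthest from the median of Nfkbia, r was 0.47. Within the 6 libraries above the PC1 gap r was 0.59 and within the 11 below it 0.18. In the 12 DMSO libraries r was 0.19 (permutation p = 0.558). Nfkbia with Nfkb2 gave r = 0.59 (permutation p = 0.012, adjusted p = 0.0675) and rho = 0.66 (permutation p = 0.00487, adjusted p = 0.0292), with r = 0.48 without Pac D7 and Pac F10. Nfkbia with Birc3 gave r = 0.56 (permutation p = 0.0169, adjusted p = 0.0675) and rho = 0.40 (permutation p = 0.117, adjusted p = 0.352), with r = 0.38 without the same 2 libraries. In the DMSO libraries these 2 pairs were at r = -0.04 and 0.04. The difference between the groups was not tested. Jun and Junb had r = -0.12 (permutation p = 0.641, adjusted p = 0.855) in the paclitaxel libraries, where it was -0.56 without Pac D7 and Pac F10, 0.94 above the gap and -0.24 below it. Nfkb2 and Relb had r = 0.29 (permutation p = 0.261, adjusted p = 0.627) there, with 0.65 without Pac C1 and Pac D10, 0.79 above the gap and -0.08 below it, and r = 0.46 (permutation p = 0.139, adjusted p = 0.416) in the DMSO libraries. Klf2 and Btg1 had r = 0.13 (permutation p = 0.623, adjusted p = 0.855) in the paclitaxel libraries. For Klf2 and Btg1 r was -0.41 without Pac D7 and Pac H4, 0.47 in the 6 libraries above the gap and 0.68 in the 11 below it.

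The TNF family genes and chemokines were under the filter, and for Tnf, Lta and Ccl4 a single paclitaxel library held most of the counts. Tnf and Lta are neighbors on chromosome 17 with Ltb, and encode secreted cytokines that activate NF-kB. Of the 138 Tnf counts in paclitaxel libraries 107 were in Pac G9, and of the 125 Lta counts 113, at 17.2 and 18.1 CPM. The 12 DMSO libraries held at most 4.41 CPM of Tnf and 2.22 CPM of Lta. Pac G9 also had 46.8 CPM of Cd68, a macrophage marker, against at most 9.92 CPM in DMSO libraries, and other macrophage markers were highest elsewhere, with Itgam at 50.6 CPM in Pac B2 and Mpeg1 at 22.04 CPM in Pac H1. The part of Cd68 in these levels was not tested. Ltb, the membrane-bound relative, was not high in Pac G9 alone, and peaked in Pac E1 at 13.6 CPM.

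Ccl3 and Ccl4, chemokines that activated B cells secrete, peaked together in Pac D7 at 18.97 and 10.5 CPM. Pac D7 held 67 of the 155 Ccl3 counts and 37 of the 48 Ccl4 counts in paclitaxel libraries. In the DMSO group the highest level of both was in DMSO 12, with 6.57 and 2.02 CPM. Without this library, which goes against its label, the highest DMSO levels were 0.698 and 0.294 CPM.

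**Figure D5:**
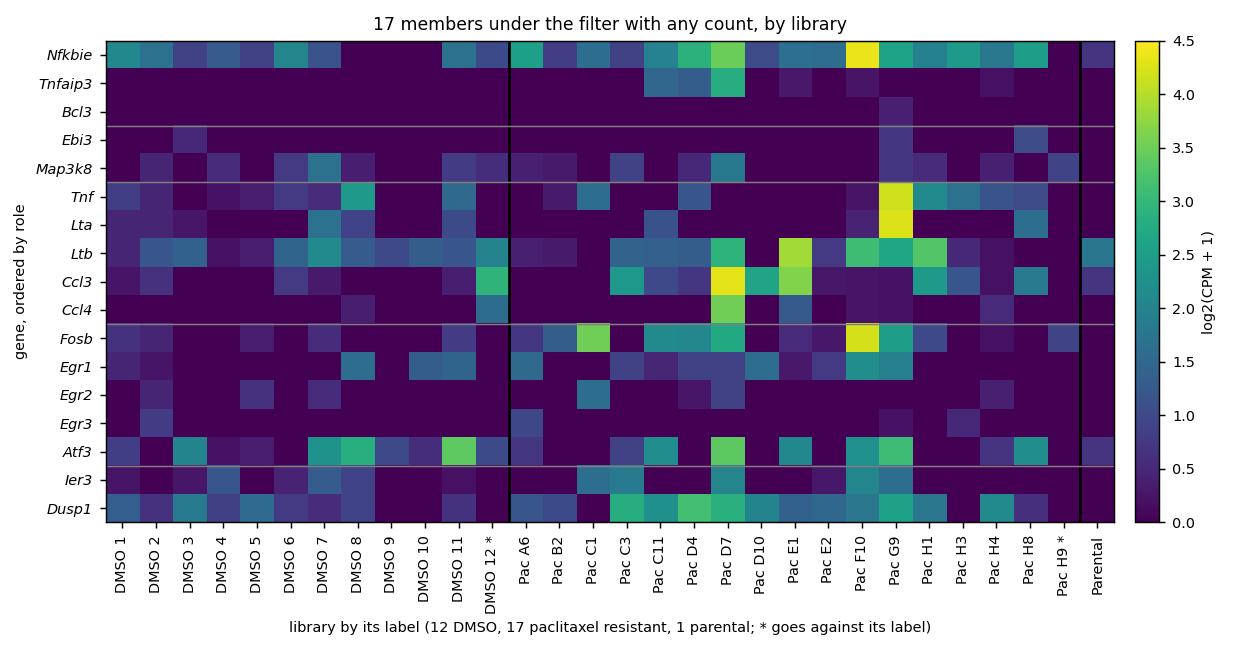
Level of the 17 genes under the filter that had any count (rows, by role) in each library (columns, by label), as log2(CPM + 1). Asterisks mark DMSO 12 and Pac H9. Tnf and Lta stand out in Pac G9, Ccl3 and Ccl4 in Pac D7, Fosb and Nfkbie in Pac F10, and Tnfaip3 is at 0 in every DMSO library.

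The remaining immediate early genes were rare. Fosb was at 0 to 0.729 CPM in the DMSO libraries, and 9 paclitaxel libraries lay above that, led by Pac F10 with 17.6 CPM and Pac C1 with 10.4 CPM from 5 counts. Dusp1, a phosphatase of MAP kinases, was at most 2.67 CPM in DMSO libraries, and 7 paclitaxel libraries lay above, up to 7.96 CPM in Pac D4. Dusp1 lies across from Ergic1 on the other strand. Egr1, the standard readout of an early growth response, had 86 counts in all 30 libraries and at most 3.70 CPM. Egr2 had 13 counts and Egr3 had 9. Atf3, a stress-induced factor, was highest in DMSO 11 with 9.47 CPM and nearly as high in Pac D7 with 9.34 CPM. Ier3 had 68 counts, Map3k8 45, Ebi3 8 and Bcl3 2, and Cd83 had 0 in every library. With no filter on low counts, 17 of these 18 rare genes could be fitted and 0 passed an adjusted p of 0.01 in edgeR's test, while 6 had an unadjusted p under 0.05. In that fit 1.04% of all 27098 genes were called, and of the 17653 genes under the filter 16.5% had an unadjusted p under 0.05. The lowest were Fosb (adjusted p = 0.0115) and Tnfaip3 (adjusted p = 0.0207).

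Above NF-kB, no gene that passed the filter on low counts was called. Of 28 genes of kinases, adaptors and ubiquitin ligases that lead to NF-kB, all were tested, 0 passed 0.01 and the median log2 difference was 0.09, against 0.07 for all genes. Of 14 receptors 4 were tested, and Tnfrsf13c, the BAFF receptor, ran from 3.03 to 41.0 CPM in DMSO and from 2.82 to 27.2 CPM in paclitaxel libraries, the top of the latter being Pac H9. Its log2 difference of -0.96 (adjusted p = 0.0363, edgeR) passed only without the 2 doubted libraries, at -1.2 (SE 0.25, adjusted p = 0.00254, edgeR). Tlr7, a receptor for single-stranded RNA, was under the filter with 1 count in the DMSO and 76 in the paclitaxel libraries, and 9 of the 17 paclitaxel libraries lay above every DMSO library, led by Pac H1 with 8.33 CPM and Pac G9 with 6.57 CPM. It passed the threshold in the fit with no filter (adjusted p = 0.00506, edgeR), where 1.04% of all genes were called.

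Of 30 further NF-kB targets, 18 were tested and 1 rose, against 0.995% of all genes tested. This was Cd69, an activation marker of lymphocytes that also responds to MAP kinase signals, with 0.374 to 16.4 CPM in DMSO libraries and 10.3 to 186 CPM in paclitaxel libraries. Pac D7 and Pac C1 were highest at 186 CPM each, and 14 of the 17 paclitaxel libraries lay above every DMSO library. The log2 difference was 3.75 (SE 0.55, adjusted p = 5.28e-05, edgeR), and 3.98 (adjusted p = 2.22e-05) without the 2 doubted libraries. Ccl5, a chemokine, ran from 0.776 to 96.6 CPM in the DMSO libraries, with DMSO 12 highest, and from 8.74 CPM to 675 CPM, in Pac G9, in the paclitaxel libraries. Its log2 difference was 2.58 (adjusted p = 0.0395, edgeR) and 3.23 (adjusted p = 0.011, edgeR) without the 2 doubted libraries. It passed 0.01 with DESeq2 (adjusted p = 0.00985). The cyclin gene Ccnd2 passed only without the 2 doubted libraries, with 3.90 (SE 0.92, adjusted p = 0.007, edgeR) against 2.27 (adjusted p = 0.12) with them. The median log2 difference of the 18 genes was 0.12, against 0.07 for all genes.

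Upstream of the immediate early genes, 27 genes of the RAS to MAP kinase cascade and the SRF partners were tested, and 0 passed 0.01, with a median log2 difference of 0.26 against 0.07 for all genes. Of 24 MAP kinase feedback and delayed early genes 15 were tested and 1 rose, against 0.995% of all genes, and it was again Cd69, which both lists hold. Zfp36l1, of the Zfp36 family, ran from 2.10 to 14.6 CPM in DMSO and up to 64.6 CPM in Pac F10, with a log2 difference of 1.47 (adjusted p = 0.026, edgeR). Zfp36l1 passed the threshold with DESeq2 (adjusted p = 0.00592), with edgeR's likelihood ratio test (0.0099) and with library size as a covariate (0.00495, edgeR's quasi-likelihood test). The median of these 15 genes was 0.47 with 11 above 0, against 0.07 and 5343 of 9445 over all genes tested. In bulk RNA a higher level per cell and a larger share of cells with the transcript cannot be told apart.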

How the data were processed

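RNA of 30 lines was measured by 3′-end digital gene expression sequencing, 1 library per line, made in 2 subpools whose membership is not given in the sources used here. The authors aligned reads to GRCm38 with STAR 2.5.1b and deposited whole-number counts per gene, not normalized. Whether molecular identifiers were collapsed, and whether strand was used, is not given there, so counting error may be understated. Of 55401 gene identifiers, 55141 were given a symbol from gencode M21, an earlier release than the M25 of the study. There were 0 unused columns of sample values.

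The 42 genes and all lists were chosen with earlier results of these data known. All genes of the 12 DMSO and 17 paclitaxel libraries were fitted together in edgeR 4.0.16 (R 4.3.3) with TMM factors, the filterByExpr filter, quasi-likelihood F tests and Benjamini-Hochberg adjustment over all genes, called under 0.01. The parental library stayed outside the fit. The SE is the log2 fold change divided by the root of F. Levels are TMM-normalized CPM, and log2 CPM used a prior count of 2. All 42 genes are described, and those under the filter are given by counts. Correlations and principal components used numpy 2.4.6. Promoters are RefSeq's, searched over 250 bases on both strands. Alternatives were DESeq2 1.42.0, edgeR's likelihood ratio test, RLE factors, no filter, a covariate of log10 total counts, thinning to 480919 counts, other prior counts and thresholds, and libraries left out. On simulated counts for this comparison 176 of 185 genes changed 4-fold were recovered among 9290 tested, with 1 false call.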

Additional observations from a re-analysis of the deposited data

Results flagged for a closer look

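The library labelled Parental, which no comparison uses, held 2 of the 24 tested genes above every DMSO library, which is 8.33% against 10.7% of all genes tested. Birc2 was at 68.6 CPM there, from 115 counts, against 55.3 CPM in the highest DMSO library, DMSO 3, and 62.7 CPM in the highest paclitaxel library. Zfp36 was at 30.4 CPM, from 51 counts, against 29.96 CPM in the highest DMSO library, DMSO 10, and 36.1 CPM in the highest paclitaxel library. Both rest on a single library with no replicate, and since the names of single libraries are uncertain, so is which library is the parental one.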

How the results depend on the processing

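Of 180 values of the 24 genes under the alternatives, 168 kept their direction and side of the threshold, and Klf2 was called in each. The number of genes called of all, 208, was 321 without DMSO 12 and Pac H9, 338 without Pac C3 and DMSO 11, 491 with DESeq2, 448 with edgeR's likelihood ratio test, 117 after thinning and 714 under 0.05, and 139 to 299 with 1 library left out. The causes were not tested, apart from the fewer genes tested after thinning. Of the 24 genes, 2 (Klf2 and Jun) were called with DESeq2, the likelihood ratio test or the depth covariate, 3 under 0.05, and 1 to 2 with 1 library left out, Jun joining without Pac H3. Of the pathway genes 1 was called, against 3 without DMSO 12 and Pac H9, 3 with DESeq2, and 2 with the likelihood ratio test, no filter or the depth covariate. For the relations by Pearson's r, 0 passed, against 2 without DMSO 12 and Pac H9 and 2 after thinning, the pairs of Nfkbia with Relb and with Birc3. By Spearman's rho with all libraries in, Nfkbia with Relb and with Nfkb2 passed in the paclitaxel lines (adjusted permutation p = 0.0292 for each). Signs turned for Rela (-0.0371 without DMSO 12 and Pac H9), Junb (0.0174 there and 0.0655 after thinning), Btg1 (0.0258 without Pac C3 and DMSO 11, 0.0632 with the covariate) and Birc2 (-0.0268 without DMSO 12 and Pac H9, -0.0398 without Pac C3 and DMSO 11, -0.0229 without a filter and -0.0248 with the covariate), all with values near 0. Correlations that turned under the alternatives were Nfkbia with Nfkb2 in DMSO lines (0.0708 without DMSO 12), Nfkbia with Relb in DMSO lines (-0.0584 thinned), Jun with Junb (0.0505 in DMSO and 0.124 in paclitaxel lines when thinned, and 0.936 in the 6 paclitaxel libraries above the PC1 gap) and Nfkb2 with Relb below the gap (-0.0791). Without the 2 farthest libraries Klf2 with Btg1 turned in paclitaxel lines (-0.413), as did Jun with Junb (0.449) and Nfkbia with Nfkb2 (0.0535) in DMSO lines. Leaving out single libraries and splitting at the gap were chosen after seeing the data. Depth limits the genes at a few CPM, since 1 count in Pac C1, the smallest library, is worth 2.09 CPM. No paired analysis was possible because the labels of the groups share no replicate numbers.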

Other observations

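Of the 24 tested genes, the library labelled Parental lay inside the DMSO range for 18, above it for 2 and below it for 4, namely Traf1, Sqstm1, Gadd45b and Ier2. These are 8.33% above and 16.7% below, against 10.7% and 10.98% of all genes tested. It had a count of 0 for 18 of the 42 genes, among them Tnf, Lta, Ccl4, Tnfaip3 and Fosb.

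DMSO 11, the only control library on the side of high PC1, had the highest DMSO level of Rela (60.8 CPM), Relb (12.2 CPM), Sqstm1 (99.6 CPM), Btg1 (24.9 CPM), Atf3 (9.47 CPM) and Fosb (0.729 CPM) and the lowest of Klf2 (23.9 CPM) and Junb (30.5 CPM). Of the 24 tested genes it was highest for 4 and lowest for 2, while of all genes tested it was highest for 27.2% and lowest for 20.95%. Its Nfkbia and Jun levels, in contrast, lay within those of the other DMSO libraries. Mitochondrial transcripts were 12.4% of its counts, the highest share of the 30 libraries, and their part in these levels was not tested.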
